A study of Mus musculus with 9 samples.

Results

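Coagulation and fibrinolysis were followed through 8 named genes, F3, Thbd, Procr, Plat, Plau, Plaur, F13a1 and Pf4, of 34198 gene symbols measured by bulk RNA sequencing of microdissected mouse atrioventricular (AV) nodes. The members were taken by symbol, and all 8 were found and passed the filter on low values, at least 1 CPM in at least 3 libraries. CPM is a gene's reads scaled to a fixed library total, so it does not correct for gene length, and levels are compared between libraries only. All mice were of the C57BL/6J strain. The 3 control libraries (1 to 3) carried the genotype label Control. The 3 Cx3cr1 Cx43-/- libraries (4 to 6) came from mice labelled as lacking the gap junction protein Cx43 (gene Gja1), with the macrophage and monocyte gene Cx3cr1 named in the genotype. The 3 macrophage-depleted libraries (7 to 9) came from Cd11bDTR mice, in which a diphtheria toxin receptor is driven by the Cd11b promoter, which is active in monocytes and neutrophils as well as macrophages. The age and sex of the mice, the toxin dose and timing, any toxin given to control mice and any pooling of nodes are not given in the sources used here. The series' design text calls the 3 libraries of each group biological replicates.

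Clotting starts when tissue factor (F3) meets factor VII, and it ends in thrombin, fibrin and the cross-linking of fibrin by factor XIII, whose A subunit is F13a1. Thrombomodulin (Thbd) and the endothelial protein C receptor (Procr) turn thrombin towards activating the anticoagulant protein C, and tissue-type (Plat) and urokinase-type (Plau) plasminogen activators make the plasmin that dissolves fibrin. Resident macrophages of many tissues express F13a1 and Pf4, endothelial cells express Thbd, Procr and Plat, and the urokinase receptor Plaur is found on activated monocytes, neutrophils and macrophages.

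The deposited columns summed to between 28.3% (library 9) and 48.7% (library 1) of the CPM total. What made up the rest of the total is not recorded in the sources used here. The 3 depleted libraries summed to 44.0%, 37.7% and 28.3% against 42.8% to 48.7% in the other 6. The median gene stood 0.49 lower on the log2 scale in depleted than in control nodes. Rescaling the columns to a common listed total changed that median to -0.18 and median-of-ratios scaling to -0.04. Gja1 stood at 163 to 246 CPM in control and 179 to 250 CPM in Cx3cr1 Cx43-/- libraries. Cardiomyocytes of the node also express it, so whole-node levels do not check a deletion in Cx3cr1-expressing cells. One read was worth 0.0154 to 0.0192 CPM, and member values rested on about 52 reads (Procr, library 9) to about 5022 reads (F13a1, library 5). The summed CPM of 16 resident macrophage markers was 314 to 473 in control, 466 to 613 in Cx3cr1 Cx43-/- and 74.2 to 85.1 in depleted libraries. In depleted against control nodes 14 of the 16 fell (limma adjusted p under 0.05), beside 33.0% of all genes that passed the filter. Cd163, a defining marker, stood at 0.31, 0 and 0.34 CPM in libraries 7, 8 and 9 against 10.6 to 17.6 CPM in control. In whole tissue, fewer cells of a type and less RNA per cell cannot be told apart.

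In macrophage-depleted against control nodes, 3 of the 8 members changed. F13a1 and Pf4 fell and Plaur rose, at limma adjusted p under 0.05 over all 12925 tested genes. Over all tested genes 3.23% were called higher and 33.0% lower, so 2 of 8 members lower is a share near that background. Without overlap between the groups, 467 of the 12925 genes were higher and 4912 lower in depleted than in control libraries. F13a1 fell by 2.43 on the log2 scale and Pf4 by 1.97, which placed them at the 0.611 and 1.64 percentiles of all log2 changes. Plaur lay at the 97.9 percentile and F3, which did not pass the test, at the 92.5 percentile. The median log2 change of the 8 members was -0.55, beside -0.49 over all tested genes.

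**Figure D1:**
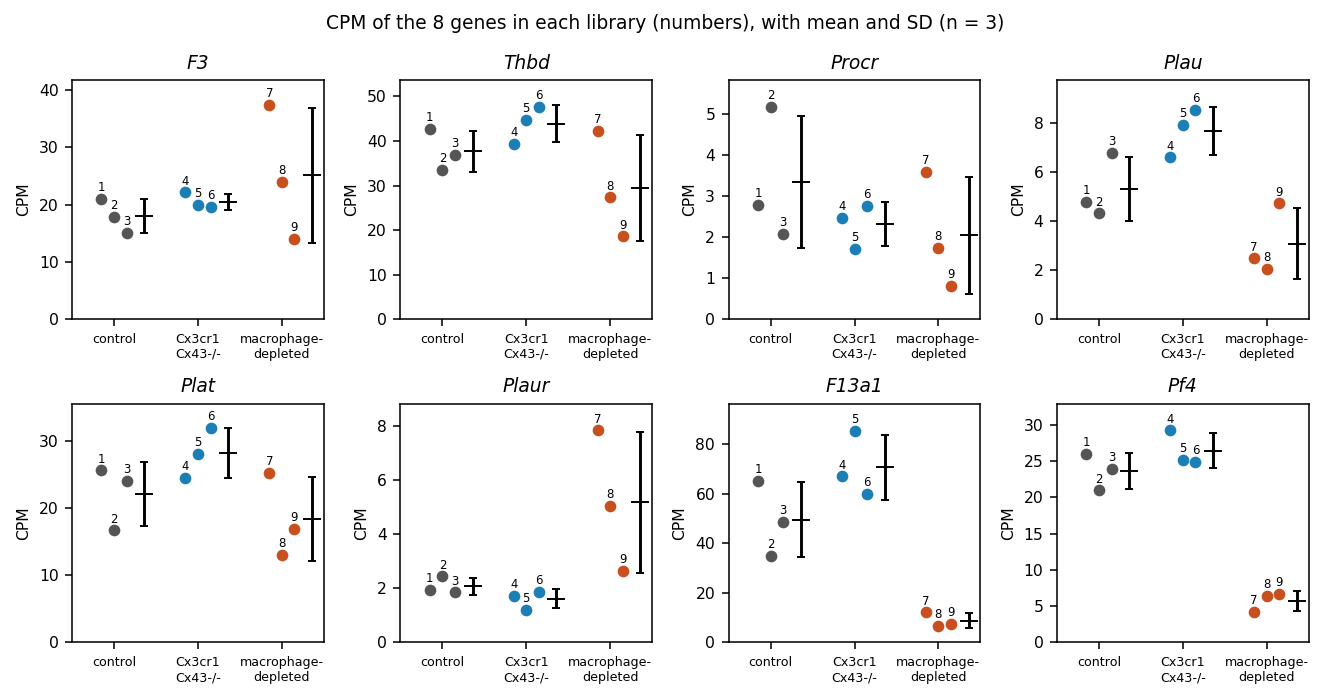
CPM of each of the 8 genes in each of the 9 libraries (linear axes from 0), with numbered points for libraries and bars for the mean and SD of each group (n = 3). The depleted points of F13a1 and Pf4 lie below every other point and those of Plaur above every other point, while the groups of F3, Thbd, Procr and Plat overlap.

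F3 encodes tissue factor, the cell-surface receptor that starts coagulation. Its levels were 21.0, 17.8 and 15.0 CPM in control, 22.1, 19.9 and 19.5 CPM in Cx3cr1 Cx43-/- and 37.4, 24.0 and 14.0 CPM in depleted libraries 7, 8 and 9. Libraries 7 and 8 were the highest of the 9 and library 9 the lowest, so the groups overlapped. The depleted mean of 25.1 ± 11.8 CPM (SD, n = 3) exceeded the control mean of 17.9 ± 2.99 CPM (SD, n = 3) by 0.38 on the log2 scale (SE 0.27, 95% interval -0.18 to 0.94, limma adjusted p = 0.273). This result depended on the scaling: F3 was called higher by 0.71 at a common listed total (adjusted p = 0.0115) and by 0.86 with median-of-ratios scaling (adjusted p = 0.00448). It also depended on 2 libraries, since the change was 0.74 without library 9 (adjusted p = 0.0190) and 0.04 without library 7.

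Thbd and Procr form the endothelial switch from clotting to protein C activation. Thbd stood at 42.7, 33.6 and 36.9 CPM in control, 39.3, 44.8 and 47.6 CPM in Cx3cr1 Cx43-/- and 42.2, 27.3 and 18.6 CPM in depleted libraries. Library 7 lay within the control range and libraries 8 and 9 below it. The depleted minus control log2 change of Thbd was -0.43 (SE 0.24, 95% interval -0.93 to 0.08, limma adjusted p = 0.170), it was 0.06 under median-of-ratios scaling, and it was called at -0.72 without library 7 (adjusted p = 0.00985). Procr, among the sparser members in reads, stood at 2.78, 5.17 and 2.08 CPM in control, 2.46, 1.72 and 2.76 CPM in Cx3cr1 Cx43-/- and 3.59, 1.73 and 0.80 CPM in depleted libraries. The 3 groups overlapped, and the depleted minus control log2 change of Procr was -0.67 (SE 0.41, 95% interval -1.52 to 0.18, limma adjusted p = 0.200), called at -1.09 without library 7 (adjusted p = 0.0379).

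Summed endothelial markers were 492 to 719 in control, 638 to 710 in Cx3cr1 Cx43-/- and 526, 422 and 294 CPM in libraries 7, 8 and 9. In depleted against control nodes 4 of the 11 genes fell, beside 33.0% of all tested genes, and the list median was -0.44 beside -0.49 over all tested genes. Of the defining markers, Cdh5 fell by 1.03 on the log2 scale (limma adjusted p = 0.0018), and Pecam1 gave -0.40 (adjusted p = 0.167). Kdr (-1.87, limma adjusted p = 1.1e-06), Tie1 (-0.92, adjusted p = 0.0029) and Cldn5 (-0.64, adjusted p = 0.0406) also fell. Besides Pecam1, Esam (0.09), Flt1 (-0.04), Emcn (-0.11), Robo4 (-0.28), Eng (-0.44) and Tek (-0.49) were not called. At a common total 1 marker was called higher and 3 lower (median -0.11), beside 1136 and 2534 of all 12925 tested genes. Under median-of-ratios factors 2 markers were called higher and 3 lower (median 0.04), beside 1685 and 1675 of all tested genes. No endothelial marker was at 0 in any library. The part of this in the values of Thbd, Procr and Plat was not tested.

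Plat and Plau encode the 2 plasminogen activators. Plat stood at 25.7, 16.7 and 24.1 CPM in control, 24.6, 28.2 and 32.0 CPM in Cx3cr1 Cx43-/- and 25.3, 13.1 and 16.9 CPM in depleted libraries. The depleted and control groups overlapped, with a log2 change of -0.29 (SE 0.25, 95% interval -0.81 to 0.23, limma adjusted p = 0.370) that turned to 0.04 at a common listed total and to 0.19 with median-of-ratios scaling. Plau, the urokinase gene, stood at 4.78, 4.30 and 6.77 CPM in control, 6.59, 7.92 and 8.51 CPM in Cx3cr1 Cx43-/- and 2.47, 2.05 and 4.71 CPM in depleted libraries. Libraries 7 and 8 were the lowest of all 9, and library 9 lay within the control range. The depleted minus control log2 change of Plau was -0.74 (SE 0.32, 95% interval -1.40 to -0.08, limma adjusted p = 0.0702), and it was called at -1.05 without library 9 (adjusted p = 0.0129).

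Plaur encodes the receptor that holds urokinase at the cell surface. Its levels were 1.95, 2.44 and 1.85 CPM in control, 1.73, 1.21 and 1.88 CPM in Cx3cr1 Cx43-/- and 7.83, 5.05 and 2.63 CPM in depleted libraries 7, 8 and 9. Every depleted library was above every other library, with library 9 only just above the highest control. Plaur rose by 1.03 on the log2 scale (SE 0.37, 95% interval 0.27 to 1.80, limma adjusted p = 0.0333) from 2.08 ± 0.316 to 5.17 ± 2.60 CPM (SD, n = 3 each). The call was lost in 7 of 14 alternatives, with the change at 0.70 (adjusted p = 0.127) without library 7, 1.0 (adjusted p = 0.0929) without control library 1, 0.97 (adjusted p = 0.101) without control library 3 and 0.99 (adjusted p = 0.0653) without library 8. Without library 9 it was 1.40 (adjusted p = 0.00698).

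Markers of other myeloid cells were read beside Plaur. The summed CPM of 8 monocyte markers was 64.6 to 91.2 in control, 93.3 to 103 in Cx3cr1 Cx43-/- and 188, 159 and 132 in libraries 7, 8 and 9. In depleted against control nodes 4 of the 5 tested markers rose, beside 3.23% of all tested genes. Most of the monocyte sum was Ace, also an endothelial gene, at 60.8 to 98.4 CPM in the other 6 libraries and 143, 111 and 101 CPM in the depleted ones. The other 7 markers summed to 3.82 to 10.8 CPM in the other 6 libraries and 45.0, 48.0 and 31.0 CPM in the depleted ones. Ccr2, a defining marker, had 6.16, 8.0 and 15.1 CPM in libraries 7, 8 and 9. It had 6.53, 1.65 and 4.45 CPM in control and 3.78, 7.53 and 4.26 CPM in Cx3cr1 Cx43-/- libraries. Its call against control (log2 change 1.19, limma adjusted p = 0.0213) was therefore made with overlapping groups. Ly6c2, also a defining marker, had 2.71, 0.17 and 1.11 CPM there and was not called (limma adjusted p = 0.129). Chi3l3, a listed marker not among the defining ones, had 28.7, 26.4 and 12.4 CPM there. Plaur and Chi3l3 fell from library 7 to library 9, but so did Ace and the listed share of the CPM total. The order of these libraries was therefore not read as a sign of cell source. The 9 neutrophil markers summed to 0.78 to 1.38 CPM in control, 1.60 to 2.74 CPM in Cx3cr1 Cx43-/- and 6.12, 5.80 and 1.32 CPM in libraries 7, 8 and 9, with S100a8 at 3.31, 1.63 and 0 CPM. Only 1 of these 9, Csf3r, passed the filter, and it was not called (log2 change -0.12, limma adjusted p = 0.835). The part of these cells in the Plaur value was not tested.

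F13a1 encodes the catalytic A subunit of factor XIII, the transglutaminase that cross-links fibrin. Its levels were 65.2, 34.9 and 48.6 CPM in control, 67.1, 85.3 and 60.0 CPM in Cx3cr1 Cx43-/- and 12.2, 6.64 and 7.62 CPM in depleted libraries. The lowest library of the other 2 groups lay well above the highest depleted library, so no groups overlapped with the depleted one. F13a1 fell by 2.43 on the log2 scale (SE 0.25, 95% interval -2.95 to -1.90, limma adjusted p = 3.42e-07), from 49.6 ± 15.2 to 8.81 ± 2.95 CPM (SD, n = 3 each). Over all 15 alternatives the call was kept, at log2 changes of -2.67 to -1.95.

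Pf4 encodes platelet factor 4, the chemokine CXCL4, which platelets store in their granules and which neutralises heparin. Its levels were 26.0, 21.0 and 23.9 CPM in control, 29.2, 25.2 and 24.9 CPM in Cx3cr1 Cx43-/- and 4.18, 6.37 and 6.65 CPM in depleted libraries. The depleted group lay below both others without overlap. Pf4 fell by 1.97 on the log2 scale (SE 0.24, 95% interval -2.46 to -1.48, limma adjusted p = 2.36e-06), from 23.6 ± 2.53 to 5.73 ± 1.35 CPM (SD, n = 3 each), and its call was kept in all 15 alternatives at -2.08 to -1.51.

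Summed platelet markers overlapped between all 3 groups. The 12 platelet and megakaryocyte markers summed to 3.26 to 7.23 CPM in control, 5.75 to 6.54 CPM in Cx3cr1 Cx43-/- and 3.77 to 8.40 CPM in depleted libraries, and in depleted against control nodes 0 of the 3 tested members were called by limma, with 1 at an unadjusted p under 0.05. That gene, Gp1ba, stood at 1.47 to 2.34 CPM in the other 6 libraries and 1.64, 0 and 0.49 CPM in libraries 7, 8 and 9. It gave -1.08 (limma adjusted p = 0.0647) against control and was called at -1.28 against Cx3cr1 Cx43-/- nodes (adjusted p = 0.0270). That call was lost at both rescalings, where 0 of the 3 tested markers were called. Of the defining markers, Ppbp, a chemokine of platelet granules, stood at 0 to 0.95 CPM and Itga2b at 1.02 to 4.12 CPM over the 9 libraries, and Gp6 was at 0 in all 9.

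**Figure D2:**
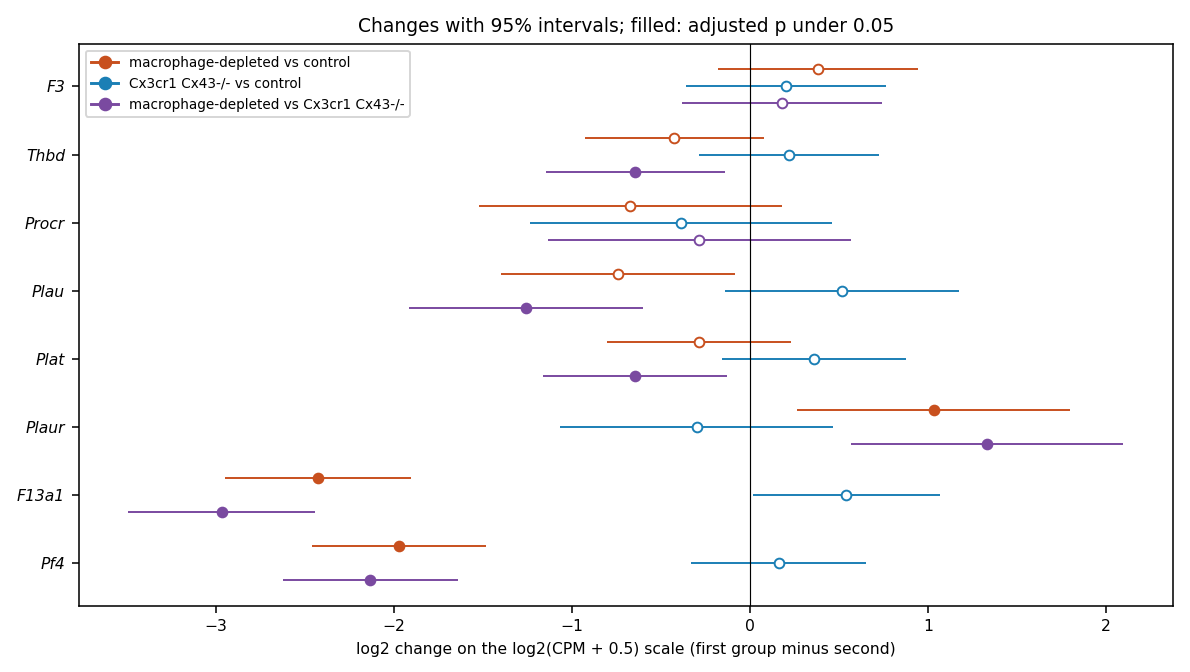
Log2 change of each of the 8 genes in the 3 comparisons, with 95% intervals, on the log2(CPM + 0.5) scale, where filled points have an adjusted p under 0.05. In depleted against control nodes F13a1 (-2.43) and Pf4 (-1.97) lie furthest below 0 and Plaur (1.03) furthest above it.

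Sequence just upstream of the start sites is shown for the 3 members called in depleted against control nodes, because 2 of them fell and the other rose. RefSeq promoter entries (build GRCm38.p6) matched 5 of the 8 members. The 250 bases before the start are given 5′ to 3′ on the gene's strand, and capitals mark matches, on either strand, to motifs searched in this window: TGANTCA (AP-1), GAGGAA (the core bound by PU.1 and other ETS factors), GGGCGG (Sp1), TATAAA, TTCNNNGAA and the NF-kB motif.
Plaur, chr7:24462233-24462482, plus strand: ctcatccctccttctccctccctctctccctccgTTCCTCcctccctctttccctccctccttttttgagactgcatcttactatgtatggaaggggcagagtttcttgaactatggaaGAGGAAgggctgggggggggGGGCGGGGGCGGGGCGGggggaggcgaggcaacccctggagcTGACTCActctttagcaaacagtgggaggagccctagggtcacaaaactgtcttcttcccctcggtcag
F13a1, start 1, chr13:37050245-37050494, minus strand: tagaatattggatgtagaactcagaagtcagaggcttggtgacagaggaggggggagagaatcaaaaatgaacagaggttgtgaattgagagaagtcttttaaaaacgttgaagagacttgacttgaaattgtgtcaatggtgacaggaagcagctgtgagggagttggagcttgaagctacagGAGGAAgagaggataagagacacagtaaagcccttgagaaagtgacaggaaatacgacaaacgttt
F13a1, start 2, chr13:37049214-37049463, minus strand: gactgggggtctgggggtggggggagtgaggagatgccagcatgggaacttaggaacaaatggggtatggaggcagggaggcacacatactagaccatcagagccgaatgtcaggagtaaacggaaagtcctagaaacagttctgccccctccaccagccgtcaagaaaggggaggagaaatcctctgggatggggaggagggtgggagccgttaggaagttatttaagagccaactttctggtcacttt
Pf4, chr5:90772185-90772434, plus strand: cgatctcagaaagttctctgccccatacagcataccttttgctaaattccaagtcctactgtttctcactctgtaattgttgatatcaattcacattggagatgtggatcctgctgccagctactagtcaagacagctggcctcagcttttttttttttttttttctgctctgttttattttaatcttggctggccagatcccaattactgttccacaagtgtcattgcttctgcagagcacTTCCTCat

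Plaur held TGACTCA 69 to 63 bases before its start, 2 matches to GAGGAA and 3 matches to GGGCGG, 2 of which overlap. F13a1 held GAGGAA at 66 to 61 bases before start 1 and no match before start 2. Pf4 held GAGGAA on the opposite strand, at 8 to 3 bases before its start. Among 32536 distinct RefSeq promoter sequences cut to the same 250 bases, 6.73% held TGANTCA, 23.4% GAGGAA and 33.0% GGGCGG. The matches are described here and read as no binding site, and whether any factor binds them was not tested. F3 held 2 matches to TGANTCA and Procr 1, and none of the 5 members held TATAAA (12.3% of promoters), TTCNNNGAA (7.04%) or the NF-kB motif (1.40%).

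In Cx3cr1 Cx43-/- against control nodes, 0 of the 8 members were called by limma and 1, F13a1, had an unadjusted p under 0.05. Over all tested genes, 0% were called higher and 0.00774% lower, which was 1 gene, Cytl1, named here after its value was seen, and 191 genes had an unadjusted p under 0.05. F13a1 gave a log2 change of 0.54 (SE 0.25, 95% interval 0.02 to 1.06, limma adjusted p = 1.0), with 70.8 ± 13.1 against 49.6 ± 15.2 CPM (SD, n = 3 each). The Cx3cr1 Cx43-/- values of 67.1, 85.3 and 60.0 CPM overlapped with the control value of 65.2 CPM. Plau gave 0.52 (95% interval -0.14 to 1.17), Plat 0.36, Thbd 0.22, F3 0.20, Pf4 0.16, Plaur -0.30 and Procr -0.39 on the log2 scale, each at a limma adjusted p of 1.0. With 3 libraries a group, changes of the sizes within these intervals are not excluded.

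Depleted against Cx3cr1 Cx43-/- nodes gave 6 called members, 1 higher and 5 lower, beside 2.69% higher and 40.7% lower over all tested genes. F13a1 fell by 2.97 (SE 0.25, limma adjusted p = 1.23e-08) and Pf4 by 2.13 (SE 0.24, adjusted p = 8.38e-07) on the log2 scale. Plau fell by 1.26 (SE 0.32, adjusted p = 0.00373) and Plaur rose by 1.33 (SE 0.37, adjusted p = 0.00693), both without overlap between the groups. Of all 12925 tested genes, 6539 were lower and 438 higher without overlap in this comparison. Plat fell by 0.65 (SE 0.25, adjusted p = 0.0397) and Thbd by 0.64 (SE 0.24, adjusted p = 0.0367), with overlapping groups. The calls of Plat and Thbd were lost in 10 of 15 alternatives, among them both rescalings, where Plat gave -0.27 (adjusted p = 0.335) and -0.09 (adjusted p = 0.767) and Thbd -0.26 (adjusted p = 0.194) and -0.08 (adjusted p = 0.710). That of Plau was lost at both rescalings, at -0.90 (adjusted p = 0.0641) and -0.74 (adjusted p = 0.130). F3 gave 0.18 (adjusted p = 0.604) and Procr -0.28 (adjusted p = 0.587). This comparison shares the depleted libraries with the one against control, so the 2 are not separate evidence.

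**Figure D3:**
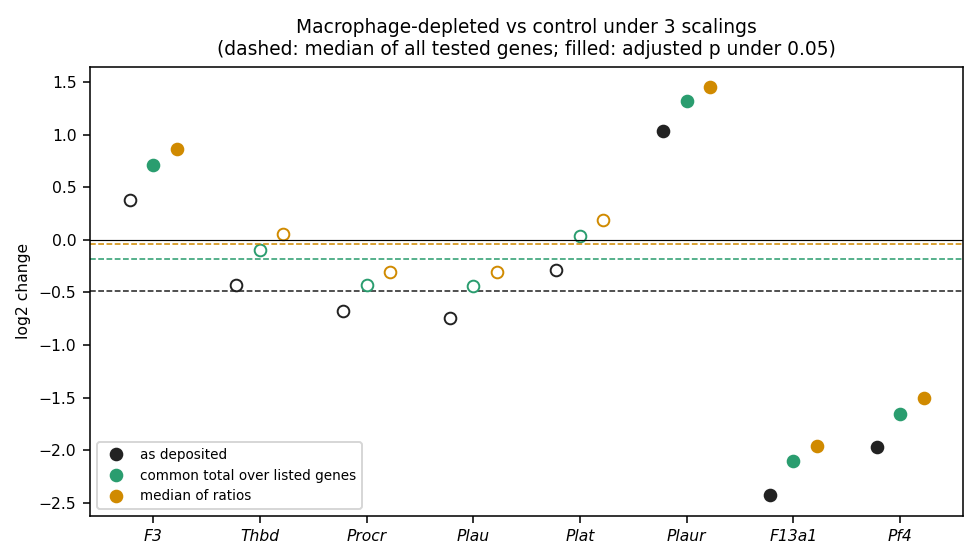
Log2 change of the 8 genes in depleted against control nodes under the deposited CPM, a common listed total and median-of-ratios scaling, with the median of all tested genes as dashed lines and filled points for an adjusted p under 0.05. F13a1 and Pf4 stay below and Plaur above 0 at each scaling, F3 rises from 0.38 to 0.86, and Thbd and Plat cross 0.

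Under both rescalings 2 members were called higher (F3 and Plaur) and 2 lower (F13a1 and Pf4) in depleted against control nodes. All tested genes then split into 1136 higher and 2534 lower at a common total, and into 1685 higher and 1675 lower under median-of-ratios factors. The deposited scale gave 417 higher and 4261 lower.

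A ratio of 2 genes within a library does not depend on the library's total, and 6 such log2 ratios were formed from the CPM values. The height of a ratio depends on the 2 gene lengths, so ratios are compared between groups only. With 3 libraries against 3 the exact two-sided permutation test cannot go below 0.1, and over the 18 comparisons the smallest Benjamini-Hochberg value was 0.36. None can therefore pass a threshold of 0.05.

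The F3/Thbd log2 ratio, initiator to anticoagulant receptor, was -1.03, -0.91 and -1.30 in control, -0.83, -1.17 and -1.28 in Cx3cr1 Cx43-/- and -0.17, -0.19 and -0.41 in depleted libraries. All 3 depleted libraries, library 9 included, lay above all 6 others. The depleted mean of -0.26 ± 0.13 (SD, n = 3) was 0.82 above the control mean of -1.08 ± 0.20, a 1.77-fold higher ratio (exact permutation p = 0.1), and 1.79-fold above the Cx3cr1 Cx43-/- mean. The F3/Tfpi log2 ratio, against the inhibitor of the tissue factor complex, was -1.11 ± 0.37 in depleted and -1.67 ± 0.23 in control libraries (SD, n = 3 each), which overlapped (exact permutation p = 0.2). Depleted libraries lay above the Cx3cr1 Cx43-/- ones in F3/Tfpi without overlap (1.44-fold, exact permutation p = 0.1).

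The Plaur/Plau log2 ratio, receptor to ligand, averaged 0.71 ± 1.35 in depleted, -1.33 ± 0.53 in control and -2.27 ± 0.40 in Cx3cr1 Cx43-/- libraries (SD, n = 3 each). The Cx3cr1 Cx43-/- group lay below control without overlap (difference -0.95, 1.93-fold, exact permutation p = 0.1). Library 9, at -0.84, overlapped with control (exact permutation p = 0.2), and the depleted group lay above Cx3cr1 Cx43-/- without overlap (7.90-fold, exact permutation p = 0.1). Without library 9 this ratio difference was 13.5-fold, and against control 7.01-fold instead of 4.10-fold.

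The remaining ratios overlapped between depleted and control libraries. F13a1/Pf4 averaged 0.60 ± 0.82 in depleted and 1.03 ± 0.30 in control, Plau/Plat -2.62 ± 0.76 and -2.07 ± 0.31, and Thbd/Procr 4.03 ± 0.49 and 3.60 ± 0.78 (log2, SD, n = 3 each).

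**Figure D4:**
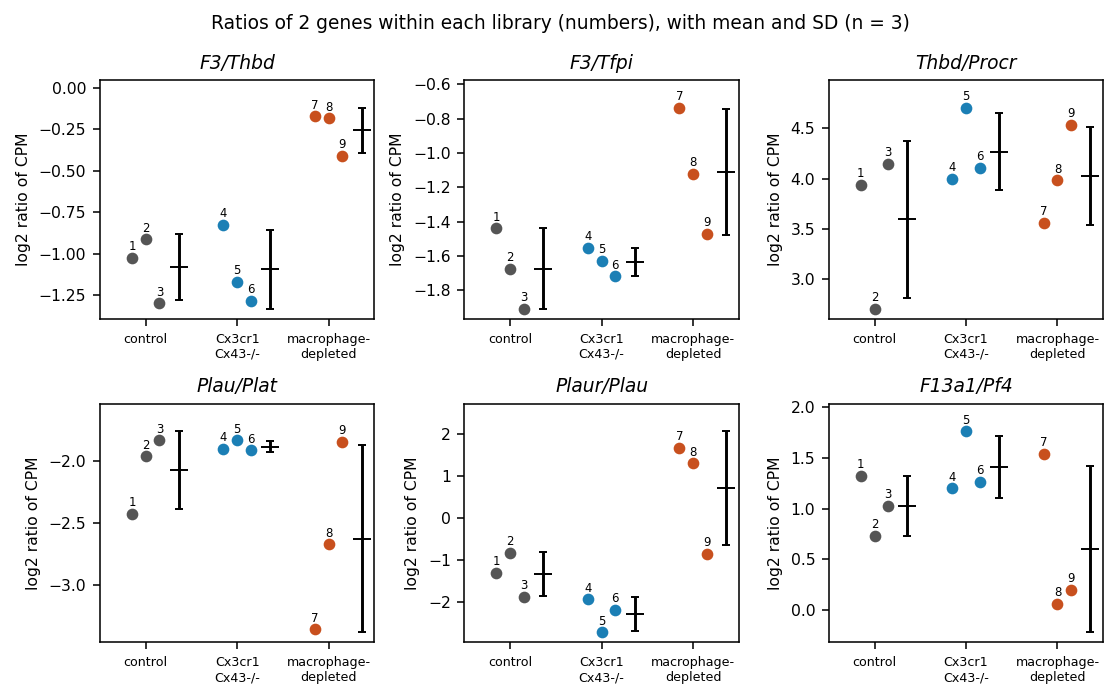
Log2 ratio of gene pairs within each of the 9 libraries (numbered points), with bars for the mean and SD of each group (n = 3). The F3/Thbd points of the depleted libraries (-0.41 to -0.17) lie above every point of the other 2 groups.

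Of 47 other listed genes of coagulation and fibrinolysis described here, 17 passed the filter on low values. Another 30 did not, among them Fgb, Fgg, Proc, F13b, Serpina5, Serpina10 and Kng1, which were at 0 in all 9 libraries. Most of these are made in the liver and circulate in plasma. In depleted against control nodes 3 of the 17 rose and 1 fell, beside 3.23% and 33.0% of all tested genes, with a median log2 change of 0.18 beside -0.49. At a common total 9 rose and 1 fell, beside 1136 higher and 2534 lower of all 12925 tested genes. Under median-of-ratios factors 9 rose and 0 fell, beside 1685 higher and 1675 lower of all tested genes.

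The genes that rose were a protease inhibitor and 2 plasminogen-binding proteins. Serping1, the C1 inhibitor, rose from 213 ± 16.2 to 347 ± 85.1 CPM (log2 change 0.67, limma adjusted p = 0.0183), but its call was lost in 6 of 15 alternatives, among them those without library 8 or without control library 2 or 3.

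S100a10 and Anxa2 form a complex that binds plasminogen and Plat at the cell surface. S100a10 rose from 44.8 ± 5.02 to 88.6 ± 17.1 CPM (log2 change 0.96, limma adjusted p = 0.00150) and Anxa2 from 104 ± 5.54 to 174 ± 45.8 CPM (0.71, adjusted p = 0.0116; SD, n = 3 each). Ggcx, the enzyme that carboxylates vitamin K-dependent clotting factors, fell by 0.88 on the log2 scale (limma adjusted p = 0.00474), and a median-of-ratios scaling gave -0.41 (adjusted p = 0.0535). Vkorc1, which recycles vitamin K, gave 0.46 (adjusted p = 0.0893) and Eno1, an enolase that also binds plasminogen, -0.42 (adjusted p = 0.159).

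The anticoagulant and thrombin receptor genes were not called. Tfpi gave -0.17 (limma adjusted p = 0.518), Pros1, the protein C cofactor protein S, 0.33 (adjusted p = 0.218) and Serpine2, a thrombin inhibitor, 0.21 (adjusted p = 0.422) on the log2 scale. F2r, the main thrombin receptor, stood at 50.4 ± 3.18 and 53.8 ± 1.44 CPM (adjusted p = 0.712), and F2rl1 gave -0.81 (adjusted p = 0.185). Under both rescalings Pros1, Serpine2, F2r and Vkorc1 were called higher and Tfpi was positive.

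Vwf, the platelet-tethering protein of endothelium, followed another pattern. It stood at 74.3, 32.2 and 41.1 CPM in control, 106, 145 and 114 CPM in Cx3cr1 Cx43-/- and 51.9, 38.0 and 22.2 CPM in depleted libraries, so the Cx3cr1 Cx43-/- group lay above both others without overlap. Of all 12925 tested genes, 768 were higher without overlap in Cx3cr1 Cx43-/- than in control libraries. Against control the log2 change of Vwf was 1.38 (SE 0.28, limma adjusted p = 0.401), and it was called without control library 1 (1.72, adjusted p = 0.0341). Depleted against Cx3cr1 Cx43-/- nodes gave -1.76 (adjusted p = 7.31e-05), and depleted against control -0.38 (adjusted p = 0.289). The red blood cell markers summed to 17.6 to 31.4 CPM in Cx3cr1 Cx43-/- and 4.54 to 16.4 CPM in control libraries, and the part of this in the Vwf value was not tested.

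In Cx3cr1 Cx43-/- against control nodes 0 of the 17 other genes were called by limma, and 1, Vwf, had an unadjusted p under 0.05. In depleted against Cx3cr1 Cx43-/- nodes S100a10 (0.68) rose, and Vwf (-1.76), F2rl1 (-1.18, adjusted p = 0.0496) and Ggcx (-0.86) fell on the log2 scale. The call of F2rl1 was lost in 10 of 13 alternatives, that of S100a10 in 4 of 15 and that of Ggcx with median-of-ratios scaling.

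**Figure D5:**
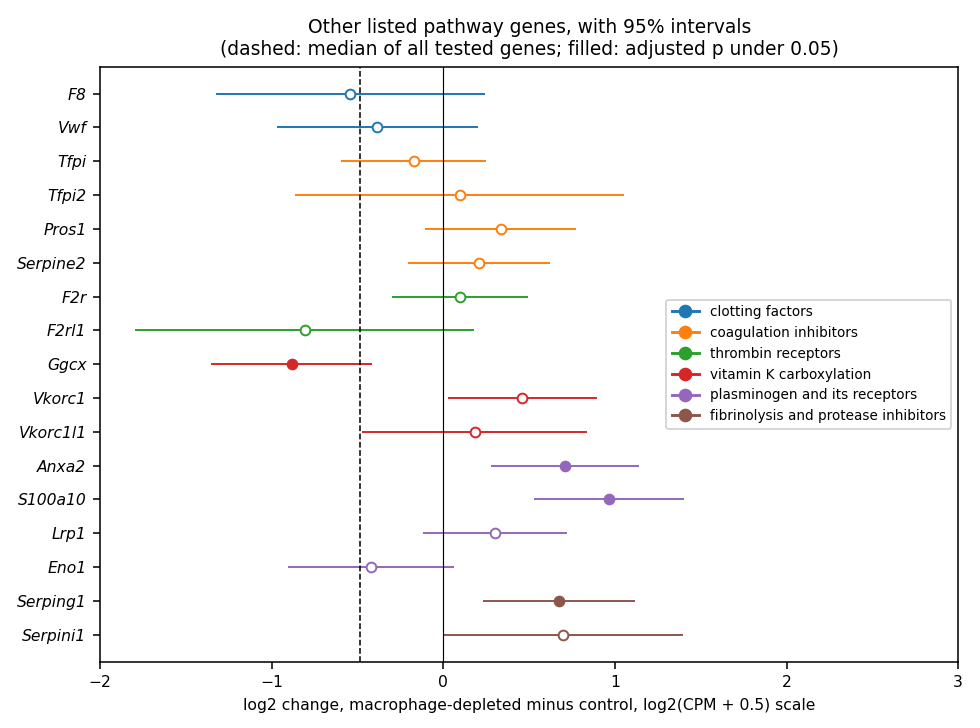
Log2 change in depleted against control nodes of the 17 other tested pathway genes, coloured by list, with 95% intervals, the median of all tested genes as a dashed line and filled points for an adjusted p under 0.05. S100a10 (0.96) lies furthest above 0 and Ggcx (-0.88) is the only gene called lower.

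For each member called in any comparison, the 3 genes with the most similar profile were sought among 9394 genes over the 9 libraries, by the root mean square difference of centred log2 values. Those of F13a1 were Ift122 (0.221), Fam81a (0.248) and Abca9 (0.253), with Abca9 at a mean of 19.3 CPM in control and 4.13 CPM in depleted libraries. Those of Pf4 were Gsg1l (0.206), Alox5 (0.210) and Scd2 (0.212), with Alox5, the leukotriene-forming lipoxygenase of myeloid cells, at 16.2 and 4.26 CPM. Those of Plaur were the immediate early genes Cyr61 (0.164), Ier5 (0.193) and Ier3 (0.210), with Cyr61 at 45.7 CPM in control, 43.4 CPM in Cx3cr1 Cx43-/- and 109 CPM in depleted libraries. Cdh11 (0.142), Fbln5 (0.169) and Afap1l2 (0.196) lay nearest to Plau. Cd300lg (0.0885), Limk2 (0.0923) and Cpeb4 (0.111) lay nearest to Plat, and Appl1 (0.0685), Svil (0.0720) and Sh3bp4 (0.0790) nearest to Thbd.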

How the data were processed

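CPM values, rounded to 2 decimals, were deposited by the authors for 9 libraries of total RNA made with a strand-directional kit, per the labels' protocols. The submitters' processing notes name the mm9 build, edgeR, HTSeq 0.6.0 and STAR 2.3.0, whose roles are not given in the sources used here. Values were not whole reads after rounding, so no count model was fitted. log2(CPM + 0.5) was fitted with limma 3.58.1 in R 4.3.3, with 1 model over 3 groups, a trended empirical Bayes variance and 3 two-sided contrasts. Of 34198 symbols, 12925 had at least 1 CPM in at least 3 libraries, and p-values were adjusted over these by Benjamini-Hochberg, with calls under 0.05. Fold changes on this scale understate the change of low genes. The script was tested on simulated data. Alternatives changed the pseudocount (0.1, 2), the filter (none, mean of 5 CPM), the scaling, the variance model, the groups fitted and the threshold (0.01), and left out each library in turn. The members and the gene lists were chosen with earlier results of these data known. Named genes were the 8 members, Tfpi, F2r, Vwf, up to 3 tested genes of smallest p per pathway list, of which some are given by count only, and 3 pattern neighbours per called member. Promoter sequences were RefSeq's, with the motifs searched in Python 3.11.15. The 9 columns held 0 pairs of identical libraries. One further listed gene is not reported here.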

Additional observations from a re-analysis of the deposited data

How the results depend on the processing

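No paired analysis was possible because the groups share no replicate numbers. F13a1 and Pf4 kept their direction and their call in all 15 alternatives in depleted against control nodes. The following results did not keep theirs, and the cause was not tested. Genes called in depleted against control nodes went from 4678 to 2509 at a threshold of 0.01 and to between 2664 and 6274 with 1 library left out, and members called to between 2 and 5, the latter without library 9. The 4 other pathway genes called became 10 at a common total, 9 with median-of-ratios scaling, 2 at the threshold of 0.01 and between 3 and 8 with 1 library left out. In Cx3cr1 Cx43-/- against control nodes the 1 gene called became 0 with a pseudocount of 0.1, no filter or the threshold of 0.01, 2 with a pseudocount of 2, and between 0 and 2 with 1 library left out, and the other pathway genes called lay between 0 and 1. In depleted against Cx3cr1 Cx43-/- nodes the 5604 genes called became 3362 with median-of-ratios scaling, 3156 at the threshold of 0.01 and between 3302 and 7049 with 1 library left out. The other pathway genes called (4) became 9 at a common total, 10 with median-of-ratios scaling, 2 at the threshold of 0.01 and between 2 and 7 with 1 library left out.

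Signs turned for these log2 changes, none of them called in either setting. In depleted against control nodes, Plat became 0.039 and Tfpi 0.16 at a common total, and Thbd became 0.057, Plat 0.19, Tfpi 0.31, Vwf 0.10 and Eno1 0.058 with median-of-ratios scaling, and Tfpi lay between -0.33 without library 7 and 0.011 without library 9. In depleted against Cx3cr1 Cx43-/- nodes, Procr became 0.14 with median-of-ratios scaling and lay between -0.71 and 0.12 with 1 library left out. F3 lay there between -0.16 without library 7 and 0.54 without library 9. The filter on a mean of 5 CPM gave no value for Procr's and Plaur's changes. At about 52 reads, the lowest Procr value has the widest counting error of the members, and 3 libraries a group limit every comparison. The within-library ratios moved by less than the larger SD of the groups compared in all their alternatives. Leaving out 1 of 3 libraries cannot move a group mean by more than its SD, so those alternatives do not show stability. The Plaur/Plau difference between depleted and control libraries lay between 1.56 and 2.81 on the log2 scale.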

Other observations

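A2m, the alpha-2-macroglobulin gene, whose protein traps plasmin and thrombin, was among the pathway genes below the filter, and it is named here after its values were seen. It stood at 1.90, 0.95 and 0.47 CPM in control, 1.30, 0.68 and 0.53 CPM in Cx3cr1 Cx43-/- and 0 CPM in all 3 depleted libraries. Those levels correspond to about 119, 51 and 27 reads, 78, 40 and 31 reads and 0 reads. A floor of 3 reads per library was a mean of 0.0518 CPM in the depleted libraries. Against it, on the deposited scale, A2m was at least 21.4-fold lower in depleted than in control nodes. Its level was at least 16.1-fold lower in depleted than in Cx3cr1 Cx43-/- nodes. Both bounds are for counting error only and without a test. The bound against control was 13.7-fold without control library 1, 16.5-fold at a common listed total and 14.7-fold with median-of-ratios factors, alternatives chosen after seeing the data. Without control library 1 those 2 rescalings lowered the bound against control to 11.3-fold and 10.4-fold. Against Cx3cr1 Cx43-/- nodes the 2 rescalings gave 12.3-fold and 10.9-fold.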
